A study of Mus musculus with 2 samples.

Results

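Epithelia that face microbes release proteins that kill bacteria, starve them of metal ions or blunt the host proteases freed during inflammation. The genes described here encode 8 such proteins, S100a8, S100a9, Lcn2, Slpi, Defb1, Defb14, Pglyrp1 and Ltf. They were chosen by symbol from the 32285 genes of the count matrices, without use of their values, and all 8 were found. Each was read as unique molecular identifiers (UMIs, 1 per captured RNA molecule) in cells with at least 800 detected genes, by cell group and by library, with a count of how much single cells held.

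The cells came from the palatal gingiva of female C57BL/6 mice (C57Bl6/J in the treatment protocol) of 8 to 12 weeks. A volume of 3 µl of a ligand at 1 µg/ml lay on the palate under an oral appliance for 1 h, and tissue was taken on day 4. CpG ODN, a synthetic DNA oligonucleotide that stimulates Toll-like receptor 9, was given to 1 group of 4 mice, and lipopolysaccharide (LPS) of Porphyromonas gingivalis, which stimulates Toll-like receptors 2 and 4, to the other. Both groups underwent the same digestion, with collagenase II and then trypsin, and equal numbers of cells from the 4 mice of a group were combined into 1 library. No untreated library was analysed here. With 1 library per ligand there is no replicate error, so no test was made, and the 95% intervals given cover counting error only. The mice of a library cannot be told apart, and an effect of the ligand cannot be told apart from any other difference between the libraries.

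The CpG ODN library held 72173148 UMIs in 6219 barcodes and the LPS library 38656738 UMIs in 2016. The minimum of 800 genes kept 4888 and 1277 cells, with medians of 11077.5 and 22680 UMIs, so a kept LPS cell was the deeper one. The libraries shared 5 barcodes, 1 of them among kept cells. Levels are given as UMIs per 1000000 UMIs of the summed cells (CPM), which removes the difference in depth. Shares of cells with a UMI depend on depth and are therefore also given as estimated after thinning each cell to 1500 UMIs.

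The 6165 kept cells fell into 27 clusters, formed without these 8 genes, and 17 named cell groups. Of these, 3869 CpG ODN and 1055 LPS cells were epithelial-like, and most of them were keratinocytes (3555 and 822). These ran from basal-like cells (1060 and 261) and dividing keratinocytes (356 and 73) through a group led by Lgi2 (1262 and 233) and spinous-like cells with Krt76 (788 and 221) to upper-like cells with Lor, which encodes a protein of the cornified envelope (89 and 34). Smaller groups were named by a leading gene, as H19 cells (109 and 82), Krt4 cells (85 and 68) and Odam cells (17 and 18). Odam is known from the junctional epithelium, which seals the gingiva to the tooth. Of the 3 markers set for that cell type only Odam itself stood out in the Odam cells, which carried Krt14 and were led by BC037156, Odam and Sprr2d, so they are called by the gene and by no cell type. Cells with gland markers formed a group led by Wfdc18 (91 and 51) and another with Muc5b, a secreted mucin (12 and 14). Myeloid-like cells numbered 32 and 13.

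The antimicrobial proteins act in different ways. S100a8 and S100a9 pair up as calprotectin, which withholds zinc and manganese from microbes and is known best from neutrophils. Lcn2, lipocalin 2, captures the siderophores with which bacteria collect iron, and Ltf, lactotransferrin, binds iron itself. Slpi inhibits neutrophil elastase and other serine proteases and is also antibacterial. Defb1 and Defb14 are β-defensins, small cationic peptides that damage microbial membranes, and Pglyrp1 recognises the peptidoglycan of bacterial cell walls.

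All 8 genes are annotated as protein coding in GENCODE M21 (GRCm38), in which 32235 of the 32285 gene identifiers of the files were found. S100a8 (chr3:90668978-90670035, plus strand) and S100a9 (chr3:90692632-90695721, minus strand) are neighbours on chromosome 3, and Defb14 (chr8:19194357-19195212) and Defb1 (chr8:21776599-21795185) are both on the plus strand of chromosome 8. Lcn2 (chr2:32384633-32388252) and Slpi (chr2:164354070-164389095) are both on the minus strand of chromosome 2. Pglyrp1 (chr7:18871331-18890459) and Ltf (chr9:111019271-111042767) are on the plus strand.

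The 250 bases before the start site of S100a8, S100a9 and Lcn2 are shown because these 3 genes had the highest levels in the Odam cells relative to the other epithelial-like cells. They come from RefSeq (GRCm38.p6), run 5′ to 3′ on the strand of the gene, and capitals mark matches to the letters searched on both strands. The start sites are those of RefSeq. For S100a9 the window abuts the GENCODE gene end given above. For S100a8 and Lcn2 the start sites differ from those of GENCODE. The Lcn2 window therefore lies inside the GENCODE gene, and the S100a8 window runs past its GENCODE start. The windows are chr3:90668821-90669070 for S100a8, chr3:90695722-90695971 for S100a9 and chr2:32387740-32387989 for Lcn2.
S100a8: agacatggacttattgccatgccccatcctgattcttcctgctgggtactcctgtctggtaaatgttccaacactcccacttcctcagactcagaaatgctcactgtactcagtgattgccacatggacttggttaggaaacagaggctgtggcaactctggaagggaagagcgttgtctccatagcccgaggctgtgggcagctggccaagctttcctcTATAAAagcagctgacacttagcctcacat
S100a9: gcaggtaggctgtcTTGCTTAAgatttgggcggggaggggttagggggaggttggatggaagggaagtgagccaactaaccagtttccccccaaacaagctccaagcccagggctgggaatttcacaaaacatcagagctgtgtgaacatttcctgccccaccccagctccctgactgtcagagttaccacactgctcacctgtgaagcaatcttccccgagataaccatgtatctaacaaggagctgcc
Lcn2: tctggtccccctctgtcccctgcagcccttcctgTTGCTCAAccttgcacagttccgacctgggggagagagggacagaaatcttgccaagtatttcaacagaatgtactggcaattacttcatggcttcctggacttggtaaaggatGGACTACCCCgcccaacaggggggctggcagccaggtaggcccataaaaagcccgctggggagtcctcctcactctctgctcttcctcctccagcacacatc

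In the S100a8 window the letters TATAAA, those of a TATA box, started 30 bases before the start site, and 12.4% of 32851 mouse promoter windows of this length hold them. TTGCNNAA, a C/EBP-type pattern held by 9.56% of windows, started 236 bases before the start site of S100a9 and 216 bases before that of Lcn2. It was also present on the opposite strand in the windows of Slpi (241 bases before the start site) and Ltf (75 bases). An NF-κB-type pattern, GGG and TCC with 4 bases of any kind between them, is held by 16.5% of windows and was found on the opposite strand of Lcn2 (102 bases) and Pglyrp1 (93 bases). TGANTCA, an AP-1-type pattern held by 6.75%, was in none of the 6 windows read. The windows of Defb1 and Defb14 were not analysed here. Such matches are matches of letters and do not show that a factor binds there.

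**Figure D1:**
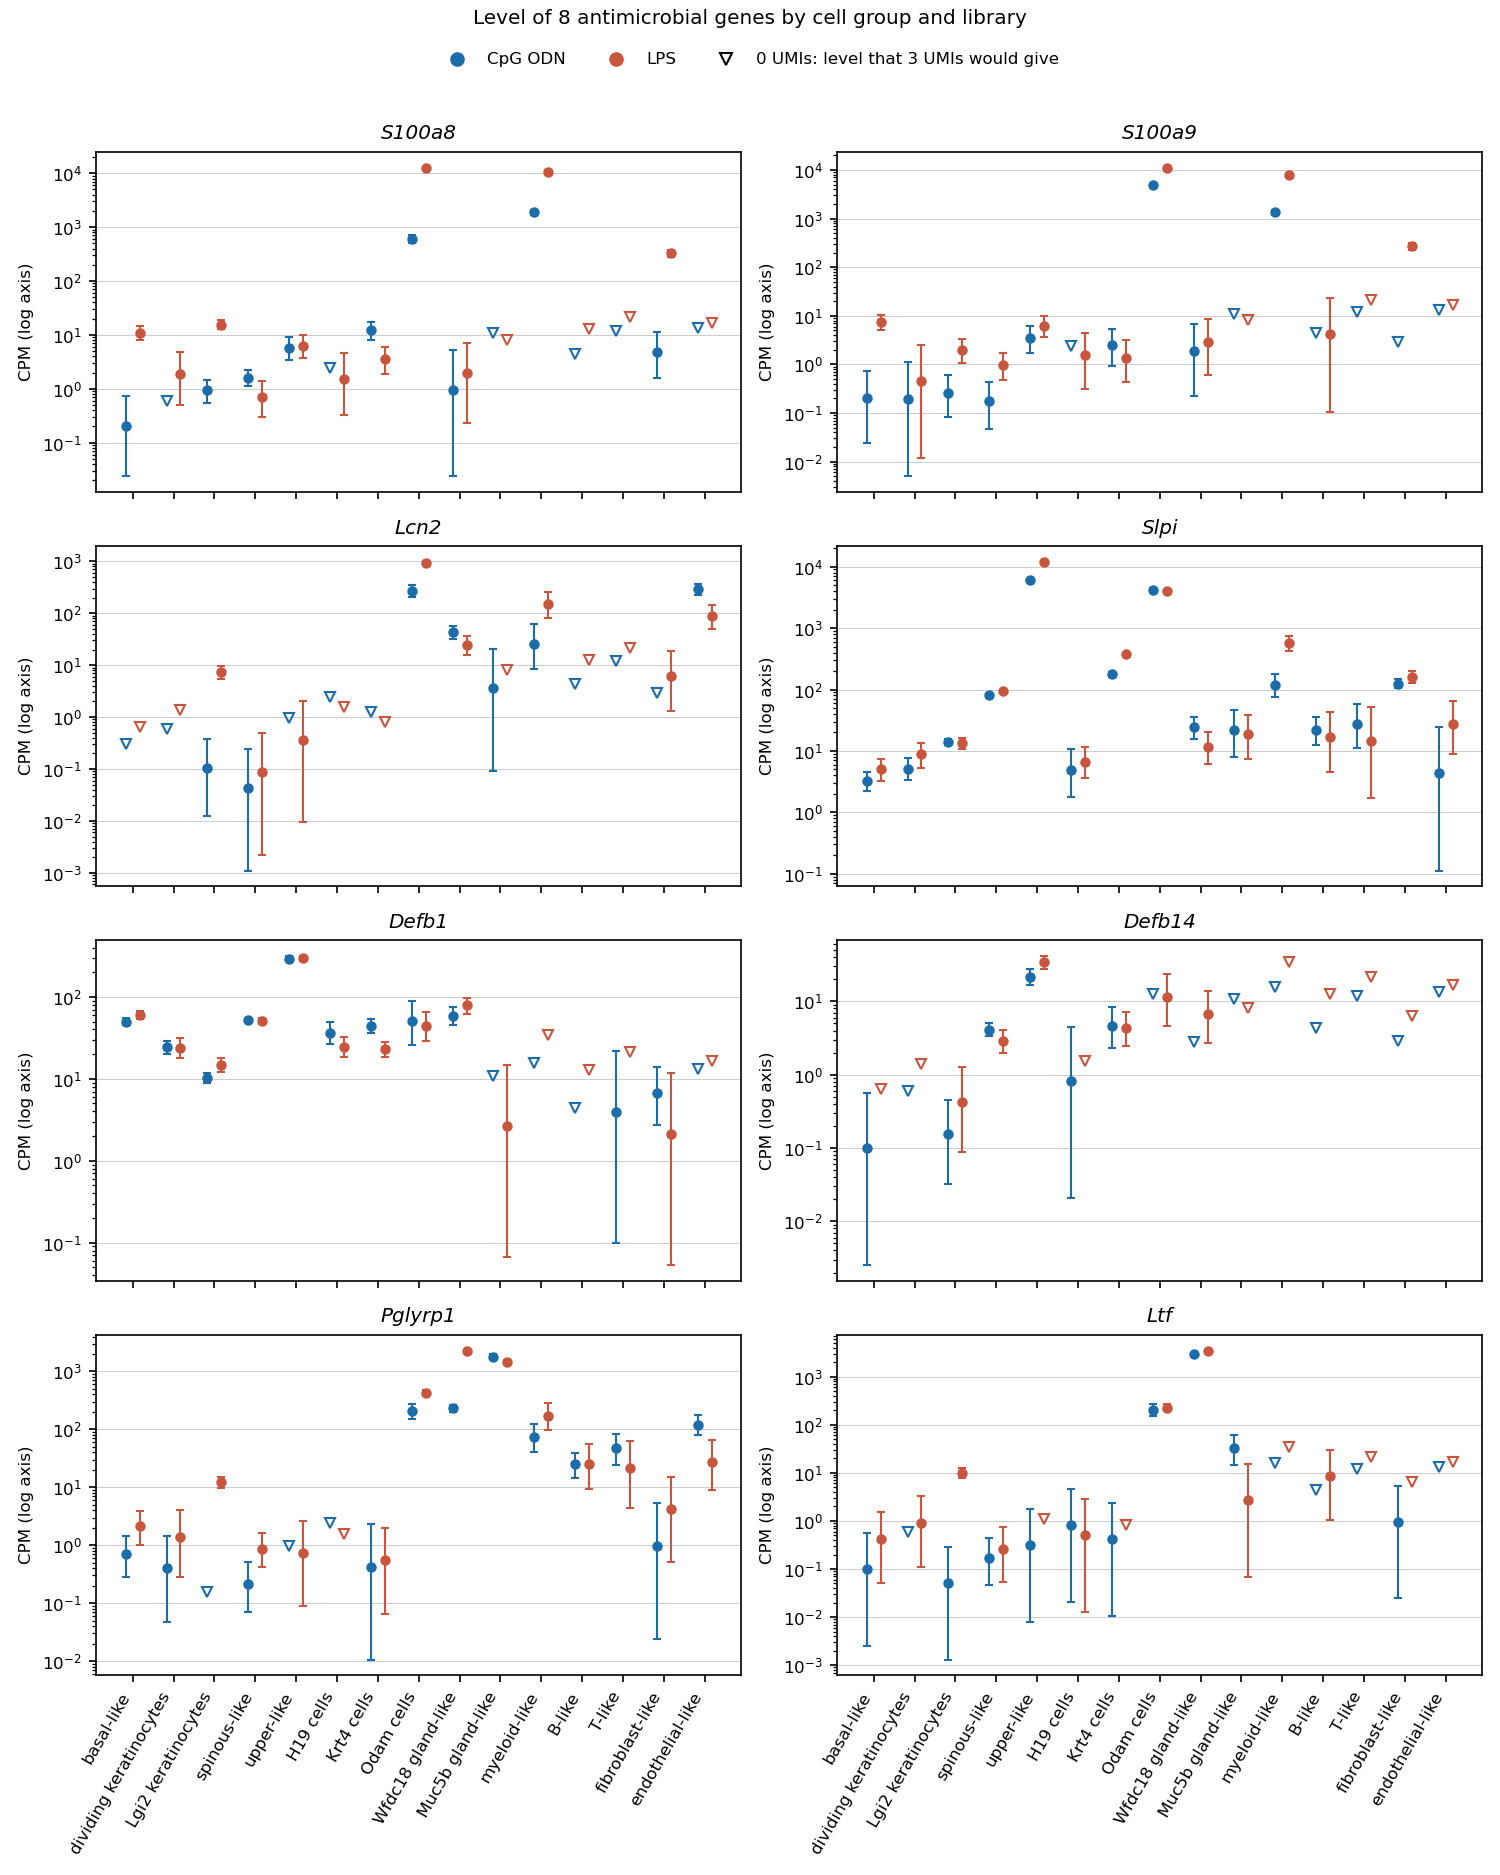
Level of each gene (CPM, log axis) by cell group, with the CpG ODN library in blue and the LPS library in red; bars are 95% Poisson intervals and open triangles mark groups with 0 UMIs at the level that 3 UMIs would give. Slpi, Defb1 and Defb14 peak in the upper-like cells, S100a8 and S100a9 in the Odam and myeloid-like cells, and Pglyrp1 and Ltf in the gland-like cells.

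Slpi, Defb1 and Defb14 were the genes of the upper layers. Compared with basal-like cells, upper-like cells had higher levels of these 3 genes past 2-fold in both libraries, where 10.9% of 10036 genes compared were called higher. S100a8 was not past 2-fold in both, and the other 4 genes had fewer than 20 UMIs in the cells compared in at least 1 library. Upper-like cells were also the deepest group, with medians of 35754 and 77872.5 UMIs, and CPM take account of that.

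Slpi was read at 6025 CPM (5940 to 6112) in upper-like cells after CpG ODN and 11999 CPM (11869 to 12130) after LPS. In basal-like cells it was read at 3.29 CPM (2.27 to 4.62) and 5.05 CPM (3.24 to 7.52). By these counts the layers differed 1830-fold (1303 to 2659) and 2376-fold (1596 to 3708). The basal-like level lay under that of the shallower B-like cells given below. It cannot be told whether these are folds over a background level or over expression in basal-like cells. Spinous-like cells lay between them at 81.6 and 93.6 CPM, which was 24.8-fold and 18.5-fold above the same basal-like level, where 8.15% of genes were called higher. Krt4 cells held 178 and 378 CPM, Lgi2 keratinocytes 14.1 and 13.4 CPM, and dividing keratinocytes and H19 cells at most 8.76 CPM. The order from Krt4 cells over spinous-like to Lgi2 keratinocytes was the same in both libraries, whereas the intervals of basal-like, dividing and H19 cells overlapped.

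Nearly every upper-like cell took part in this, with a Slpi UMI in 86 of 89 cells after CpG ODN and 33 of 34 after LPS, or 75.3% and 81.1% of cells after thinning. The cell with the most held 1569 UMIs, or 8.28% of the group, after CpG ODN and 6678 UMIs, or 20.5%, after LPS, and 8 and 4 cells held 50%. In B-like cells, taken here as the background, 13 of 285 and 4 of 69 cells had a UMI (3.32% and 2.33% after thinning). Their median depths were 2150 and 3157 UMIs and their levels 21.9 and 16.9 CPM. Whether B cells lack Slpi was not tested. Cells left unnamed held 216 Slpi UMIs (106 CPM) after CpG ODN and 3 (28.2 CPM) after LPS. After CpG ODN most of these cells lay in clusters with B or plasma cell genes among the leading ones. By CPM the levels of basal-like, dividing, Lgi2 and H19 cells lay at or below that background, which comes from shallower cells. Because of that difference in depth, whether basal-like, dividing and H19 cells express Slpi cannot be told from these levels. Lgi2 keratinocytes, with medians of 14303.5 and 27711 UMIs, were 4.27-fold and 2.66-fold above basal-like cells. Whether they express Slpi was not tested.

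Defb1 was spread most widely among the keratinocytes. It was read in upper-like cells at 293 CPM (274 to 312) after CpG ODN and 295 CPM (275 to 316) after LPS, and in basal-like cells at 49.98 CPM (45.7 to 54.6) and 59.8 CPM (53.0 to 67.1). Upper-like cells therefore exceeded basal-like cells 5.86-fold (5.25 to 6.54) and 4.93-fold (4.30 to 5.67). Spinous-like cells, at 52.2 and 51.3 CPM, did not differ from basal-like cells beyond 2-fold. The lowest keratinocyte levels were in Lgi2 keratinocytes, at 10.2 and 14.7 CPM, or 0.204 and 0.246 of the basal-like level, a direction called for 7.04% of genes. Dividing keratinocytes held 24.4 and 24.0 CPM, or 0.487 and 0.401 of the basal-like level, past 2-fold lower in both libraries, as were 0.333% of genes. To reach 50% of the Defb1 UMIs took 134 CpG ODN and 36 LPS cells of the epithelial-like ones. Defb1 was at 0 UMIs in 285 and 69 B-like cells and in 32 and 13 myeloid-like cells.

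Defb14, an inducible relative of Defb1, was sparse, with its highest level in the same layer. Of the upper-like cells of the CpG ODN library 32 of 89 held 68 UMIs, a level of 21.6 CPM (16.8 to 27.4). Of those of the LPS library 22 of 34 held 92 UMIs, a level of 34.0 CPM (27.4 to 41.6). Thinned to 1500 UMIs, the shares of cells were 3.14% and 5.88%. Spinous-like cells, which are more numerous, held 95 and 33 UMIs in 53 and 12 cells, so that after CpG ODN more of the UMIs lay there than in upper-like cells. Their level was 4.12 and 2.88 CPM, and that of Krt4 cells 4.61 and 4.35 CPM, with overlapping intervals in each library. Basal-like cells held 1 UMI after CpG ODN and none after LPS, so the difference from upper-like cells was 217-fold with an interval of 37.6 to 8680 after CpG ODN and at least 53.8-fold after LPS, against a floor of 3 UMIs per library. Dividing keratinocytes and B-like cells had no Defb14 UMI in either library.

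S100a8 and S100a9 were almost absent from the keratinocyte layers and high in the Odam cells. In the 17 Odam cells after CpG ODN there were 143 UMIs of S100a8 and 1142 of S100a9, or 603 CPM (508 to 710) and 4813 CPM (4538 to 5100). In the 18 Odam cells after LPS there were 7763 and 6793 UMIs, or 12749 CPM (12467 to 13036) and 11156 CPM (10892 to 11424). The other epithelial-like cells together held 105 and 31 UMIs after CpG ODN and 207 and 89 after LPS. The level of S100a8 in the Odam cells was 376-fold (290 to 489) and 2163-fold (1884 to 2495) that of the other epithelial-like cells, and that of S100a9 10174-fold (7127 to 15045) and 4401-fold (3571 to 5488).

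Of the 8 genes, 6 were past 2-fold higher in the Odam cells than in the other epithelial-like cells in both libraries, S100a8, S100a9, Lcn2, Slpi, Pglyrp1 and Ltf, where 7.91% of 12518 genes were called higher. Defb1 (1.05-fold and 0.763-fold) and Defb14 (no UMI after CpG ODN, 7 UMIs after LPS) were not. The LPS Odam cells were deeper than the CpG ODN ones, with medians of 31529 and 10535 UMIs, and the part of depth in these values was not tested. Odam itself also differed, with a median of 11 UMIs per cell after CpG ODN (0 to 490) and 104 after LPS (0 to 1060), and 6111 against 9413 CPM.

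A handful of cells held these UMIs. After CpG ODN a single Odam cell held 136 of the 143 S100a8 UMIs, and it had 69 of S100a9. Another cell held 770 S100a9 UMIs and none of S100a8, the next 264 and 3, and the last of the 4 held 34 and none. After LPS 4 cells stood out, with 3396 S100a8 and 2355 S100a9 UMIs, 2573 and 2302, 900 and 521, and 875 and 1019. Below them lay cells with 12 and 241, with 2 and 20, and with no S100a8 and 325 S100a9 UMIs. At least 10 S100a9 UMIs were thus found in 4 and 7 Odam cells, and at least 10 of both genes in 1 and 5. In 3 CpG ODN and 2 LPS cells S100a9 passed 10 UMIs while S100a8 did not.

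**Figure D2:**
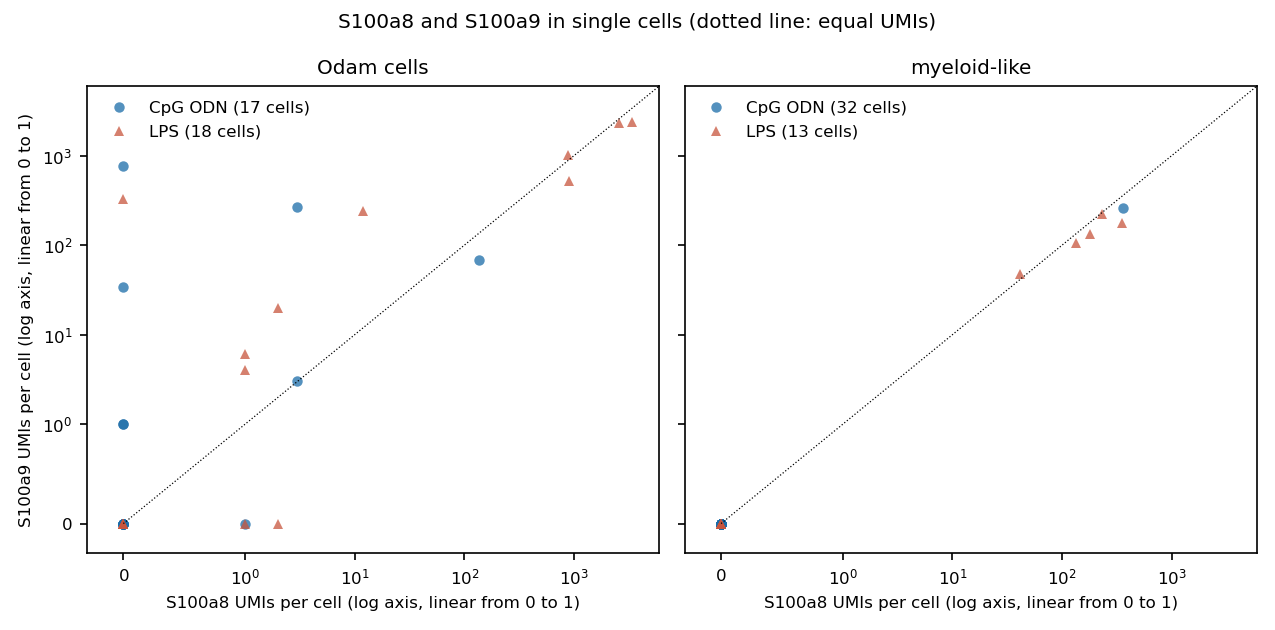
S100a9 against S100a8 UMIs in each Odam cell (left) and each myeloid-like cell (right), on log axes that are linear from 0 to 1, with CpG ODN cells as blue circles and LPS cells as red triangles; the dotted line marks equal UMIs. Myeloid-like cells with UMIs lie close to the line, whereas Odam cells include cells with up to 770 S100a9 UMIs and none of S100a8.

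The mix of the pair in the pooled UMIs of a group therefore depends on a few cells, and its intervals do not cover the spread between cells. S100a8 made up 58.1% (54.1 to 62.0%) and 57.6% (55.1 to 60.004%) of the UMIs of the pair in myeloid-like cells, where the CpG ODN value came from 1 cell. In Odam cells it was 53.3% (52.5 to 54.1%) after LPS but 11.1% (9.46 to 13.0%) after CpG ODN. In the keratinocyte layers it was 76.5% (66.9 to 84.5%) and 70.8% (64.9 to 76.2%) of 98 and 267 UMIs. There 1 LPS cell held 96 of the 189 S100a8 UMIs.

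Neutrophils carry both genes, so their markers were read in the same cells. Of 14 neutrophil genes the Odam cells held 47 UMIs after CpG ODN and 190 after LPS, of which 46 and 187 were of Mxd1, a gene that keratinocytes express as well. The other 13 genes together held 1 and 3 UMIs, or 4.21 and 4.93 CPM, and 12 and 10 of the 14 were at 0. No Odam cell had UMIs of 3 or more neutrophil genes or of 3 or more general leukocyte genes. In myeloid-like cells the 14 genes held 170 and 388 UMIs, led by Retnlg (94 and 66). All S100a8 and S100a9 UMIs of the myeloid-like cells lay in 1 CpG ODN and 5 LPS cells, all of which had at least 3 neutrophil genes. The level of the pair in Odam cells was not past 2-fold above or below that of myeloid-like cells in both libraries, where 17% and 16.6% of 2733 genes were, at 0.321-fold and 1.18-fold for S100a8 and 3.55-fold and 1.41-fold for S100a9. The myeloid-like level includes many cells with no UMI of the pair. At least 3 neutrophil genes were found in 1 CpG ODN and 7 LPS myeloid-like cells. In these S100a8 was read at 158850 and 28513 CPM and S100a9 at 114602 and 21003 CPM, all above the pooled levels of the Odam cells of the same library. Single LPS Odam cells lay above the LPS values, with up to 77222 CPM of S100a8 and 53551 CPM of S100a9.

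Outside these groups the pair was sparse. In the keratinocyte layers after CpG ODN 75 S100a8 UMIs were spread over 34 cells, with at most 10 in 1 cell, and 37 of them lay in 19 spinous-like cells. In other groups a lone cell held most UMIs. A basal-like LPS cell held 35 S100a8 and 27 S100a9 UMIs of the 52 and 35 in its group. It also had 1 UMI of the neutrophil gene Csf3r. An LPS cell among the Lgi2 keratinocytes held 96 of 108 S100a8 UMIs and 10 of S100a9. An LPS cell with 122 Col1a1 UMIs and 1 of Csf3r, grouped as fibroblast-like, held all 156 S100a8 UMIs of that group and 127 of its 128 of S100a9. In Krt4 cells after CpG ODN 1 cell held 25 of 29 S100a8 UMIs. Upper-like cells held few, with 18 and 17 S100a8 UMIs and 11 and 17 S100a9 UMIs. B-like and T-like cells had no S100a8 UMI in either library. S100a9 had 1 UMI there, in a B-like LPS cell.

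Lcn2 was the rarest of the genes in cells, with a UMI in 9 of 3869 epithelial-like cells after CpG ODN and 14 of 1055 after LPS. The Odam cells held 64 and 558 of its UMIs, or 270 CPM (208 to 344) and 916 CPM (842 to 996), which was 354-fold and 413-fold the level of the other epithelial-like cells. A single cell held 63 of the 64 and another 467 of the 558, and both were among the cells rich in S100a9. Wfdc18 gland-like cells held 46 UMIs in 3 cells and 25 in 6 (43.0 and 24.3 CPM). Lcn2 was at 0 in basal-like, dividing, H19 and Krt4 cells of both libraries. Endothelial-like cells also carried it, with 65 UMIs in 6 of 49 cells after CpG ODN and 16 in 4 of 24 after LPS, or 289 CPM (223 to 368) and 88.6 CPM (50.6 to 144). None of the B-like or T-like cells had an Lcn2 UMI.

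Slpi was present in the Odam cells at 4151 CPM (3896 to 4419) and 3956 CPM (3800 to 4117), in 11 of 17 and 14 of 18 cells. That was 12.6-fold and 3.95-fold above the other epithelial-like cells and 0.689-fold and 0.330-fold the level of upper-like cells. The CpG ODN cell with 770 S100a9 UMIs had 357 of Slpi, and the cell with 264 had 476. In the LPS library the Odam cell with the most Slpi, 748 UMIs, had 1 S100a8 and 4 S100a9 UMIs. High Slpi and high S100a9 thus met in some Odam cells and not in others. By number of genes detected, the median Odam cell had 1 of the 8 after CpG ODN and 3 after LPS, and 2 LPS cells had UMIs of all 8.

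Pglyrp1 and Ltf were the genes of the gland-like cells. Muc5b gland-like cells all carried Pglyrp1, 12 of 12 in the CpG ODN and 14 of 14 in the LPS library, at 1799 CPM (1645 to 1964) and 1450 CPM (1330 to 1577). Their UMIs were shared out, with at most 13.2% and 20.8% in 1 cell. Wfdc18 gland-like cells held 231 CPM (203 to 262) after CpG ODN and 2222 CPM (2132 to 2315) after LPS, where 20 of 91 and 26 of 51 cells had a UMI. There a single cell held 64.0% and 57.2% of the UMIs, 158 of 247 and 1309 of 2290. Both gland-like groups exceeded the keratinocyte layers past 2-fold in both libraries, at 999-fold and 563-fold for the Wfdc18 group, where 14.1% of genes were called higher, and 7782-fold and 367-fold for the Muc5b group, where 14.2% were. Odam cells held 207 and 422 CPM, and upper-like cells 0 and 2 UMIs. The B-like background was 17 and 6 UMIs (24.9 and 25.3 CPM), or 4.03% and 3.69% of cells after thinning, and the T-like cells held 12 and 3 UMIs, so the keratinocyte levels of at most 12.3 CPM lay under the level in lymphocytes.

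Ltf lay almost wholly in Wfdc18 gland-like cells. They held 3126 of the 3193 epithelial-like UMIs after CpG ODN, in 11 of 91 cells, and 3510 of 3726 after LPS, in 18 of 51 cells. The levels were 2922 CPM (2821 to 3027) and 3406 CPM (3295 to 3521). One CpG ODN cell held 1315 UMIs, or 42.1%, and 1 LPS cell 1699, or 48.4%, and 2 cells held 50% in each library. Thinned shares were 8.53% and 19.5%. Muc5b gland-like cells held 9 and 1 UMIs of Ltf, whereas Pglyrp1 was carried by both gland-like groups. The level of Ltf in the Wfdc18 group was 90.1-fold (47.4 to 197) and 1273-fold (228 to 50308) that in the Muc5b group, where 19.3% of genes were called higher, whereas Pglyrp1 was at 0.128-fold and 1.53-fold. Odam cells held 49 and 137 UMIs of Ltf, 47 and 84 of them in 1 cell.

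**Figure D3:**
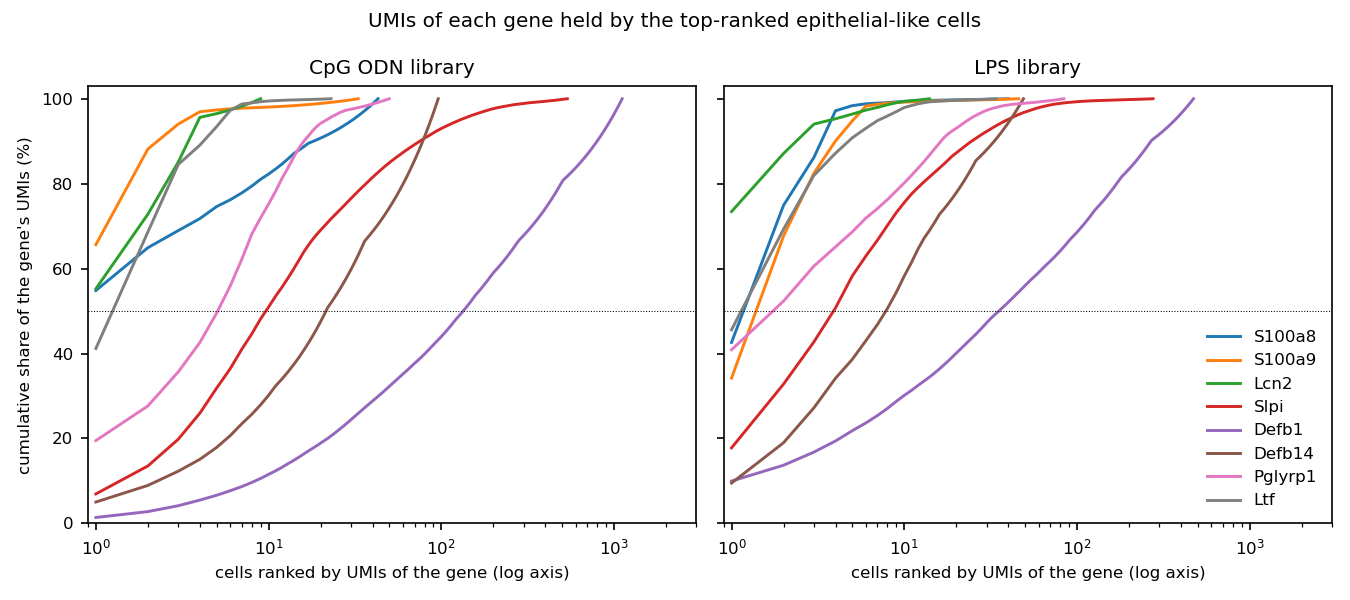
Cumulative share of the UMIs of each gene (%) against the number of epithelial-like cells, ranked by their UMIs of that gene (log axis), for the CpG ODN library (left) and the LPS library (right); the dotted line marks 50%. Defb1 needs 134 and 36 cells to reach 50% and Slpi 10 and 4, whereas S100a8, S100a9, Lcn2 and Ltf need 1 or 2.

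A cell grouped with the Lgi2 keratinocytes of the LPS library bears on 3 genes. It had 107027 UMIs, 7981 of Bpifa2, a protein of saliva, and 3611 of Wfdc18, but 1 of Krt14. It held 44 of the 51 Lcn2, 72 of the 86 Pglyrp1 and 67 of the 70 Ltf UMIs of its group. Without the top cell, the LPS level of Ltf in Lgi2 keratinocytes was 0.435 CPM in place of 10.0 CPM.

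The comparison of the libraries asks whether the ligands left different levels of these genes on day 4. Over all epithelial-like cells, 6 of the 8 genes were past 2-fold lower after CpG ODN than after LPS and none was past 2-fold higher, where 5.56% and 1.64% of 14220 genes were. S100a8 was read at 3.77 CPM after CpG ODN and 223 CPM after LPS, a CpG ODN/LPS ratio of 0.0169 (0.0148 to 0.0192). S100a9, at 17.8 and 193 CPM, had a ratio of 0.0926 (0.0869 to 0.0985), and Lcn2, at 1.73 and 17.8 CPM, one of 0.0974 (0.0791 to 0.119). These 3 ratios rest on the Odam cells, which made up 17 of 3869 cells after CpG ODN and 18 of 1055 after LPS. Without them the ratios were 0.272, 0.187 and 0.343, and the same 6 genes were past 2-fold lower, where 5.03% of genes were. Pglyrp1, at 12.3 and 89.6 CPM, had a ratio of 0.137 (0.127 to 0.148).

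Slpi, at 344 and 1051 CPM, had a ratio of 0.327 (0.322 to 0.333), and Ltf, at 48.6 and 104 CPM, one of 0.465 (0.444 to 0.488). Both depended on which cells each library held. With every cell group given the same weight in both libraries, the ratio of Slpi was 0.562 and that of Ltf 0.825, both within 2-fold, and 4 of the 8 genes were past 2-fold lower. With the top cell of each library left out Ltf was within 2-fold too, at 0.503, which left 5. The upper-like share of kept cells, where Slpi lay, was 89 of 4888 cells in the CpG ODN library and 34 of 1277 in the other. The defensins were within 2-fold, Defb1 at 0.834 (0.788 to 0.881) and Defb14 at 0.615 (0.494 to 0.767).

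**Figure D4:**
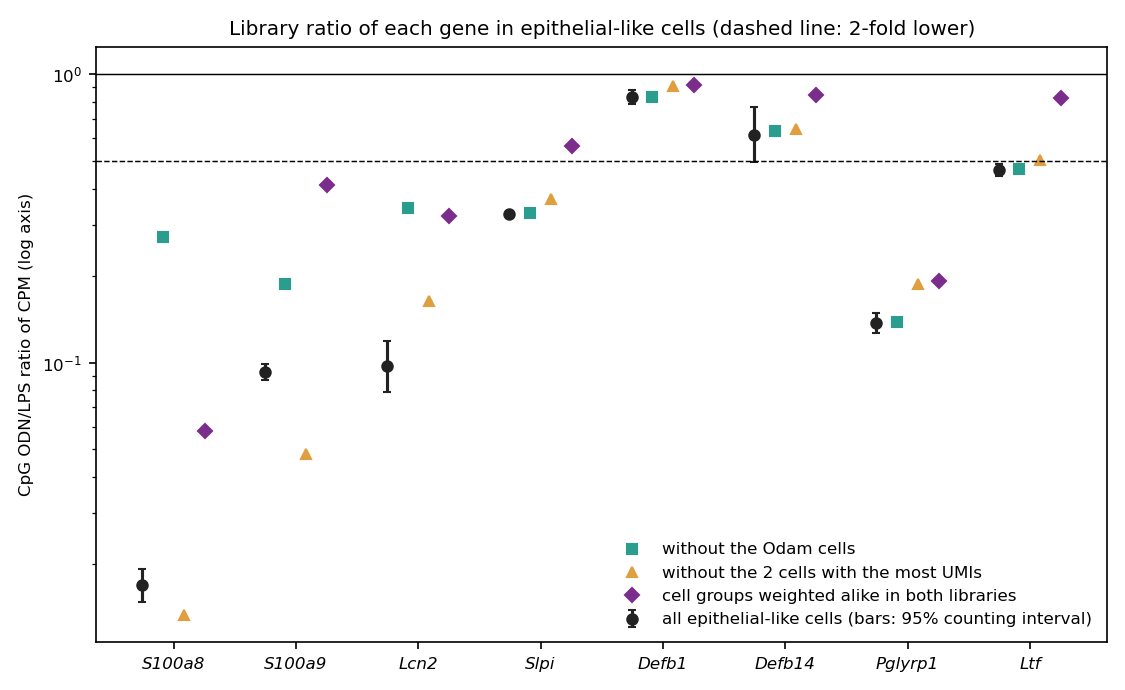
CpG ODN/LPS ratio of the CPM of each gene in epithelial-like cells (log axis), for all cells (black, with 95% counting intervals), without the Odam cells (green), with the top cell of each library left out (orange) and with cell groups weighted alike (purple); the dashed line marks 2-fold lower after CpG ODN. All ratios lie below 1, and those of Slpi and Ltf rise above the dashed line when cell groups are weighted alike.

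In the keratinocyte layers alone the same 6 genes were past 2-fold lower, where 2.48% of 13527 genes were called lower and 2.06% higher. S100a8 was at 0.184, S100a9 at 0.137 and Slpi at 0.291. Without its top cells S100a8 was at 0.324, and 1 cell held 96 of its 189 LPS UMIs. By layer S100a8 was at 0.0182 in basal-like and 0.0605 in Lgi2 cells, but 0.912 in upper-like and 2.30 in spinous-like cells. Without co-detecting cells its basal-like ratio was 0.0564. The lowest Slpi ratio of a single layer was 0.502, in upper-like cells, which were 89 of 3555 CpG ODN and 34 of 822 LPS keratinocytes. Lcn2 at 0.0263, Pglyrp1 at 0.0585 and Ltf at 0.0422 rest on 3, 14 and 7 CpG ODN UMIs and, after LPS, on the cell with Bpifa2 described above. The ratio of Ltf without its top cells was 0.277.

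Within single cell groups the libraries were closer for the genes of the upper layers. In upper-like cells, where 4.38% of genes were called lower and 4.97% higher after CpG ODN, Defb1 had a ratio of 0.993 (0.902 to 1.09), Slpi 0.502 (0.493 to 0.511) and Defb14 0.636 (0.458 to 0.880), all within 2-fold. The last 2 depended on the processing. Slpi was past 2-fold lower, at 0.480, without co-detecting cells, and at 0.768 with at least 200 genes per cell and 1.10 at a clustering resolution of 2.0. Defb14 was at 1.02 and 1.30 in the latter settings. Slpi had ratios of 0.872 (0.808 to 0.940) in spinous-like cells and 1.05 (0.973 to 1.13) in Odam cells. In Krt4 cells it was past 2-fold lower, at 0.471 (0.421 to 0.525), where 2.55% of genes were.

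In Odam cells, where 6.72% of 4255 genes were called lower after CpG ODN and 5.57% higher, 4 of the 8 were lower, S100a8 at 0.0473 (0.0398 to 0.0558), Lcn2 at 0.294 (0.224 to 0.382), S100a9 at 0.431 (0.405 to 0.459) and Pglyrp1 at 0.489 (0.353 to 0.666). Ltf (0.918, 0.648 to 1.28) was within 2-fold there but at 0.0999 with the top cell of each library left out. S100a8 without those cells was at 0.00446 and Lcn2 at 0.0290, with 7 and 1 UMIs left after CpG ODN. Which of these differences is one of cells sampled and which one of ligands was not tested.

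S100a8 went the other way in 2 groups. It was past 2-fold higher after CpG ODN in spinous-like cells, with 37 against 8 UMIs and a ratio of 2.30 (1.05 to 5.71), and in Krt4 cells, with 29 against 13 UMIs and a ratio of 3.44 (1.73 to 7.21), where 1.63% of genes were in either group. In the Krt4 cells the interval without the cells with the most UMIs ran from 0.437 to 33.7. In myeloid-like cells S100a8 and S100a9 had ratios of 0.174 and 0.171, where 11.3% of genes were called lower, and 1 CpG ODN cell held all UMIs.

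Among the gland-like cells Pglyrp1 was past 2-fold lower in the Wfdc18 group, with a ratio of 0.104 (0.0907 to 0.119), where 9.25% of genes were called lower after CpG ODN. In the Muc5b group the ratio was 1.24 (1.10 to 1.404). With at least 200 genes per cell, which redraws the groups, the Wfdc18 group was within 2-fold at 0.565 and the Muc5b group past 2-fold lower at 0.421, so which gland-like group differed depends on that minimum. Slpi was past 2-fold higher in the Wfdc18 group, where 6.2% of genes were, at 2.09 (1.02 to 4.54) on 26 and 12 UMIs, 13 of the 26 in 1 cell, and at 0.716 as the mean over cells. Ltf in the Wfdc18 group was within 2-fold, at 0.858 (0.817 to 0.9005), but at 0.366 as the mean over cells. Endothelial-like cells had higher levels after CpG ODN of Lcn2 (3.26, 1.86 to 6.03) and Pglyrp1 (4.33, 1.64 to 14.4), where 6.1% of genes were called higher. These rest on 65 against 16 and 27 against 5 UMIs. Single cells held 30, 17 and 13 of the 65 Lcn2 UMIs. As the mean over cells Lcn2 went the other way, at 107 CPM after CpG ODN and 123 CPM after LPS.

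Other secreted defence genes were read from a list of 61, of which 59 were found, 28 of them with 100 or more UMIs in epithelial-like cells. Of these 28, 14 were past 2-fold lower after CpG ODN, none was past 2-fold higher and 14 were within 2-fold. These ratios pool all epithelial-like cells, and the shares of the cell groups, such as the gland-like ones, differed between the libraries. The median log2 ratio was -1.004, against -0.02 over all 11606 genes with at least 100 UMIs, of which 2.88% were lower and 0.31% higher. Of 20 genes with at least 100 UMIs from a list of cytokines, receptors, signalling proteins and transcription factors linked to such genes, 1 was lower, the cytokine Il1a at 0.417 (0.339 to 0.513), none was higher, and the median log2 ratio was -0.14. The 5 with the most UMIs were within 2-fold, at 1.03 for Klf4, 0.920 for Cebpb, 0.829 for Nfkbiz, 0.989 for Il17rc and 0.856 for Stat3.

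The 14 lower genes fell to different cell groups. In upper-like cells lay S100a7a, which is kin to calprotectin (134 and 189 CPM there, with a ratio of 0.461 over all epithelial-like cells). The protease inhibitor Wfdc5 lay there too (147 and 366 CPM, 0.345). Pglyrp3, a further peptidoglycan recognition protein (0.291), was at 5.72 and 12.9 CPM in upper-like cells and at 5.45 and 8.98 CPM in Krt4 cells. Pglyrp4 (0.361) was highest in Odam cells, at 63.2 and 65.7 CPM. Defb6 had 45 UMIs in the LPS Odam cells, 43 of them in 1 cell, and none in the CpG ODN ones. It also lay in upper-like cells, with 63 and 47 UMIs (20.0 and 17.3 CPM). Its ratio was 0.484, and 0.698 without its top cells.

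Gland-like cells carried most of the others. Reg3g, a lectin that kills Gram-positive bacteria, had 16 UMIs in the Wfdc18 group after CpG ODN and 4437 after LPS, in 4.40% and 54.9% of its cells, and a ratio of 0.00276 over epithelial-like cells, or 0.00296 without its top cells. Dmbt1, a bacteria-binding glycoprotein of saliva, had a ratio of 0.0975, with 832 and 5961 UMIs in the Wfdc18 group. These lay in 3.30% and 13.7% of the cells of that group. Bpifb2 (0.413) and Pigr (0.278), which carries immunoglobulin A across epithelia, were highest in the Muc5b group. There Bpifb2 reached 24154 and 23374 CPM and Pigr 1244 and 1359 CPM, so within that group the libraries were close. The Muc5b group made up 0.245% of kept cells after CpG ODN and 1.10% after LPS, and the Wfdc18 group 1.86% and 3.99%.

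Single LPS cells set other values. One held 54601 of 78902 Wfdc18 UMIs, and the ratio was 0.0511 with and 0.0873 without its top cells. One held 35333 of 37739 Dcpp3 UMIs, and its ratio of 0.192 turned to 1.26 without its top cells. Of Bpifa2, 7981 of 8194 UMIs lay in the cell described above, against 18 after CpG ODN. Bpifa1 had 1606 UMIs after LPS, 1405 in 1 cell, and none after CpG ODN. Saa1, an acute phase protein, was highest in spinous-like cells, with a ratio of 0.322.

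Of the 5 listed genes with the most UMIs, Fth1, the ferritin heavy chain, was at 0.955 and S100a14 at 0.839, and Defb4, a further β-defensin, at 0.513. Defb4 followed Defb14 in its layer, with 2186 and 3600 CPM in upper-like cells, where 98.9% and 100% of cells had a UMI, and 148 and 106 CPM in spinous-like cells. Defb3, at 0.688, had 110 UMIs in the LPS Odam cells, of which 96 lay in 1 cell.

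Across the 17 groups and both libraries, 34 points that share libraries and depth, the genes with the level most like that of a member were ranked by Pearson's r of log2(CPM + 1) among 12590 genes, as a description. S100a8 and S100a9 were nearest to each other (0.967), followed for both by Ptafr (0.866 and 0.875) and Aif1 (0.843 and 0.862). Lcn2 was nearest to AA467197 (0.901), a leading gene of the Odam cells, then Stab1 (0.798) and Mvp (0.797). Slpi was nearest to Sprr2j-ps (0.839), Cldn17 (0.824) and C130079G13Rik (0.820). Defb14 was nearest to Slc26a9 (0.922), Rgs20 (0.921) and Ceacam19 (0.914). Pglyrp1 was nearest to Kcnn4 (0.810), which was among the gland markers, Plaur (0.809) and Tmc5 (0.774), and Ltf to Tmem212 (0.908), Krt19 (0.880), also a gland marker, and Psca (0.877).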

How the data were processed

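The authors deposited gene by cell matrices of UMI counts made with Cell Ranger (version 4.0.0 per the file headers), with Seurat named in the submitters' notes. The genome build and annotation were not given in the sources used here. A cell was kept when 800 or more genes were detected in it. Counts were scaled to 10000 per cell, and 2000 variable genes, 30 principal components, 15 neighbours and Leiden clustering at resolution 1.0 (leidenalg 0.10.2, scikit-learn 1.9.0, Python 3.11.15) gave the groups, with the 8 genes and the list of 61 defence genes held out. The numerical rule for naming groups was set after the data were seen. The genes, marker lists and gene lists were chosen with earlier results of these data known. Clusters that met no rule (250 and 10 cells) stayed unnamed. No doublet caller was run, and cells that co-detect leukocyte and keratinocyte genes (58 and 5 epithelial-like, 191 and 45 other cells) were left out as an alternative.

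Levels are counts per 1000000 (CPM) of the summed cells with exact Poisson intervals, shares of pairs and cells have Clopper-Pearson intervals, and ratios have exact conditional binomial intervals, all at 95% (scipy 1.17.1). Library ratios were called past 2-fold with at least 20 UMIs in both libraries together, and differences between cell groups when past 2-fold in the same direction in both libraries with at least 20 UMIs in each. UMIs are molecules, so intervals cover counting error only. Values are given for the 8 genes in full, for the listed genes with the 5 highest UMI totals or past 2-fold, and for the 3 genes most alike, which are not reported here for Defb1. Lone cells, Defb3 and the top cells of listed genes were named after their values were seen. Scripts were tested on simulated data.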

Additional observations from a re-analysis of the deposited data

How the results depend on the processing

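Alternatives without the Odam cells or with cell groups weighted by their shares in the CpG ODN library were chosen after seeing the data. So was leaving out the cell with over 1000 Bpifa2 UMIs that was grouped with the Lgi2 keratinocytes. No paired analysis was possible because the libraries come 1 to a ligand. In epithelial-like cells the CpG ODN/LPS ratio of each of the 8 genes stayed below 1 under every alternative run. As the mean over cells it was 0.0144 for S100a8, 0.145 for Lcn2, 0.415 for Slpi, 0.889 for Defb1 and 0.178 for Ltf. With the top cell of each library left out it was 0.0133 for S100a8, 0.0483 for S100a9, 0.164 for Lcn2, 0.369 for Slpi, 0.911 for Defb1, 0.186 for Pglyrp1 and 0.503 for Ltf. Without the Odam cells it was 0.272 for S100a8, 0.187 for S100a9 and 0.343 for Lcn2. With groups weighted alike it was 0.0581 for S100a8, 0.412 for S100a9, 0.321 for Lcn2, 0.562 for Slpi, 0.917 for Defb1, 0.848 for Defb14, 0.192 for Pglyrp1 and 0.825 for Ltf.

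The upper-like over basal-like difference, as the geometric mean of both libraries, was 2085-fold for Slpi, 1235-fold with at least 200 genes per cell and 3988-fold at resolution 2.0. For Defb1 it was 5.38-fold, 2.16-fold with at least 200 genes and 4.74-fold without the top cells. With at least 200 genes, cells with Krt4 and with Lor fell into 1 group of 110 and 91 cells, and at resolution 2.0 the upper-like group held 22 and 21. The difference of Odam from other epithelial-like cells was 382-fold for Lcn2 and 161-fold as the mean over cells, and 0.895-fold for Defb1 and 0.420-fold without the top cells. For Lcn2 and Ltf it could not be computed without the top cells, as 3 UMIs or fewer were left. Of 42 ratios by cell group, 246 values under alternatives included 194 within counting error, 50 moved and 2 called ones reversed, and 26 of the 246 lay on the other side of 1 from the reported ratio. Slpi in Wfdc18 gland-like cells went from 2.09 to 0.716 as the mean over cells, and Pglyrp1 in myeloid-like cells from 0.423 to 1.01 with at least 1200 genes. The cause was not tested. The 17 and 18 Odam cells limit the values of that group, beside depth.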
